A study of Blattella germanica with 16 samples.

Results

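Proteasome genes of the German cockroach Blattella germanica were followed across 4 groups of fat body, the insect tissue that does the work of liver and adipose tissue. The members are all genes whose product name contains the word proteasome, 35 of 28676 genes in the table, and 33 of them passed the filter on low counts. They comprise 7 alpha and 7 beta subunits of the core particle, 6 non-ATPase genes of the base, 7 subunits of the lid, 1 activator, and 7 assembly factors and regulators. The 6 ATPases of the base carry the name 26S protease and so fall outside the members. They are given beside them as related genes. No product named subunit 14 of the lid was among the members, and it was not analysed here.

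Adult females received double-stranded RNA (dsRNA), a trigger of RNA interference, in 2 injections of 2 µg given 7 days apart. The dsRNA matched the insulin receptor InR2 (dsInR2), InR1 (dsInR1) or InR3 (dsInR3), or was a control (dsMock), with 4 libraries in each group. No strain, genotype or number of animals per library is given in the labels used here. Rearing was the same for all groups (30 °C, 70% humidity, dog food), and the females were in their second reproductive cycle when dissected. The sources place the injections differently with respect to dissection, and they do not settle which account holds. Each female received dsRNA of a single kind.

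The proteasome degrades proteins that carry chains of ubiquitin. Its core particle is a barrel in which rings of alpha subunits form the gate and rings of beta subunits hold the protease sites. The regulatory particle sits on the end of the barrel. Its base unfolds the substrate with a ring of ATPases and holds ubiquitin receptors, and its lid removes the ubiquitin chain. Chaperones assemble the core, and activators such as PA28 gamma can open the gate in place of the regulatory particle. The fat body synthesizes and stores large amounts of hemolymph and yolk protein in reproducing females.

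Library totals were 16.4 to 23.7 M reads in dsInR2, 16.5 to 21.6 M in dsInR1, 15.5 to 21.0 M in dsInR3 and 15.3 to 21.2 M in dsMock (M, 1e6). The 1 annotated insulin receptor (InR), for which the annotation does not say which receptor it is, had 3.42 to 7.90 CPM (counts per 1e6 reads after TMM scaling) in dsInR2 and 50.9 to 54.6 CPM in dsMock (log2 fold change -3.16, SE 0.20, edgeR adjusted p = 3.2e-07; two-sided p = 0.0286 in an exact permutation test, which can go no lower with 4 libraries a group). In dsInR3 it had 30.4 to 46.1 CPM, also below every dsMock library (exact permutation p = 0.0286), but it was not called across all genes (log2 fold change -0.46, edgeR adjusted p = 0.265). In dsInR1 it had 46.2 to 51.4 CPM and a log2 fold change of -0.11 (exact permutation p = 0.0857, edgeR adjusted p = 1). Depletion of the other receptors could not be checked. The single most abundant gene, C0J52_15443, a hypothetical protein, took up to 6.99% of reads in dsInR2, 54.1 to 60.9% in dsInR1, 35.1 to 56.9% in dsInR3 and 51.1 to 58.8% in dsMock. In dsInR1, library 2 lay apart from the other 3 libraries for the proteasome genes. The members' counts of calls that rest on dsInR1, and its comparisons of the particles within libraries, are also given without it.

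The search for fat body markers by product name found 7 genes, all detected. They were the apolipophorin APLP, the hexamerin HEXA, the transferrin TRF, MELTF, and 3 enzymes of pyruvate dehydrogenase control (Pdk_0, Pdk_1, PDP1) taken in by the word transferring. No gene of the list was named vitellogenin. Their summed level was 59200 to 105000 CPM in dsInR2, 22600 to 34300 in dsInR1, 27600 to 33900 in dsInR3 and 22900 to 37600 in dsMock. Among markers of other cells, 15 muscle genes, 1 of them with no read, summed to 126 to 276 CPM in dsInR2 and 93.3 to 180 in dsMock. The 6 hemocyte genes summed to 165 to 419 CPM in dsInR2 and 214 to 242 in dsMock. The 6 ovary and germline genes summed to 75.3 to 124 CPM in dsInR2 and 95.1 to 166 in dsMock. The 33 gut and Malpighian tubule genes, 8 of them with no read, summed to 581 to 809 CPM in dsInR2 and 803 to 1360 in dsMock. The 47 epidermis and trachea genes, 27 with no read, summed to 11.7 to 24.8 CPM in dsInR2 and 8.82 to 13.6 in dsMock, and the 18 neuron and glia genes, 6 with no read, to 31.1 to 37.3 CPM in dsInR2 and 31.2 to 38.7 in dsMock. The fat body sum lay above the dsMock range in every dsInR2 library, while the sums of the other lists overlapped. APLP carried most of it, with 66500 ± 7860 CPM in dsInR2 and 29400 ± 6630 in dsMock, and TRF had 16100 ± 14400 CPM in dsInR2 and 555 ± 314 in dsMock (SD, n = 4 each). The genes of the list did not move together, with 3 called higher under TMM scaling (APLP, TRF, PDP1) and 3 lower (HEXA, Pdk_0, Pdk_1) of 7 in dsInR2 against dsMock. HEXA had 44.4 ± 51.4 CPM in dsInR2 and 225 ± 69.3 in dsMock (log2 fold change -2.34, edgeR adjusted p = 0.0252). The part of any of these in the results on proteasome genes was not tested.

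With dsInR2, 10 of the 33 tested proteasome genes were lower than in dsMock, 1 was higher and 22 were not called (edgeR quasi-likelihood test, adjusted p under 0.05). That is 30.3% lower and 3.03% higher. Of all 10536 genes tested, 32.3% were called in this comparison, with 14.7% lower and 17.6% higher. The genes that fell were the core subunits PSMA4 and Prosbeta6, the base subunits Rpn10, Rpn2_1 and rpn-1, the lid subunits Rpn6, Rpn7 and Rpn8, the core maturation factor Pomp and the regulator PI31. The gene that rose was the activator PSME3. In dsInR2, 10 of the 33 members lay below dsMock without overlap and 2 above it. Of all genes tested, 14.4% lay below and 15.7% above without overlap, so such separation was common in this comparison. The changes were modest, with dsInR2 levels at 61.6% to 75.9% of dsMock for the 10 lower genes, and the median log2 fold change of the 33 was -0.26, against 0.04 for all genes tested. Both counts rest on the scaling. With library totals less the most abundant gene in place of TMM, the median of all genes moved to -0.50, the calls of all genes went to 692 higher and 3917 lower in place of 1851 higher and 1551 lower, and 27 members were lower and 0 higher. Relative to the median of all genes, the members' median was -0.30 with TMM and -0.31 with library totals. In bulk tissue, fewer cells of a type and less RNA per cell cannot be told apart.

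**Figure D1:**
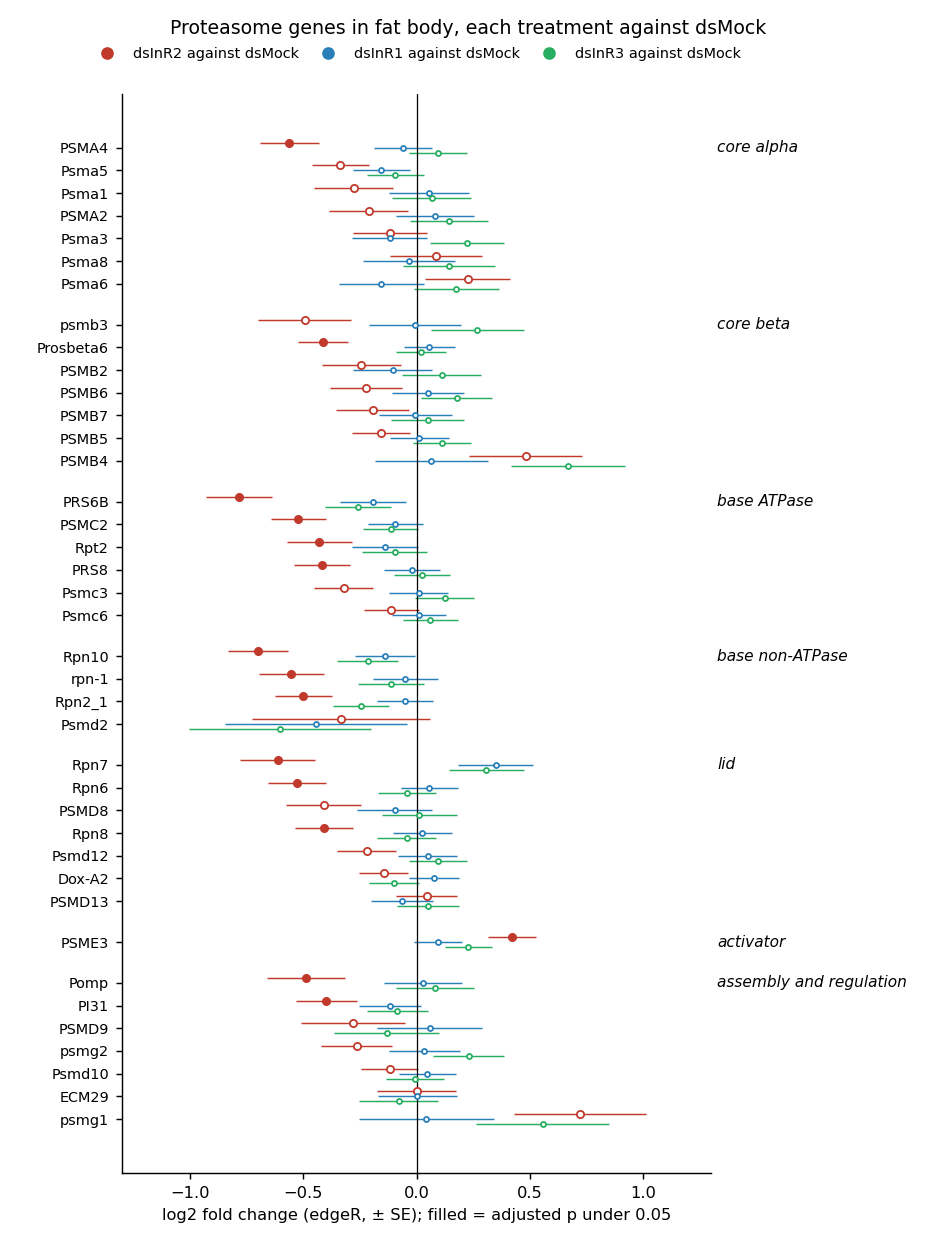
Log2 fold change (± SE, edgeR) of each tested proteasome gene and of the 6 base ATPases, by its place in the complex, for dsInR2, dsInR1 and dsInR3 against dsMock, with filled points where the adjusted p was under 0.05. The filled points all belong to dsInR2, with 14 to the left of 0 and PSME3 to the right, although PSME3 had a log2 fold change of -0.10 when library totals less the most abundant gene were used for scaling.

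In the core particle, the alpha ring was represented by 7 genes, of which 1 was lower with dsInR2 (median log2 fold change -0.21). PSMA4 (C0J52_00475, contig PYGN01000057.1 from 3402823 to 3409766 in Bger_1.1), subunit alpha type 4, had 28.4, 25.3, 27.7 and 21.6 CPM in dsInR2 libraries 1, 4, 7 and 8, against 35.7, 35.2, 44.1 and 37.0 CPM in dsMock libraries 1, 3, 4 and 5. Every dsInR2 library lay below every dsMock library. The log2 fold change was -0.56 (SE 0.13, edgeR adjusted p = 0.00382). PSMA4 overlaps ngly1, a deglycosylating enzyme gene that also fell, and the labels do not say whether reads were counted by strand, so the pair may not have been separated.

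At the other end of the alpha ring, Psma8 (C0J52_18576, contig PYGN01002287.1 from 134530 to 142003), an alpha type 7-like subunit, had 36.3, 34.0, 30.2 and 30.1 CPM in the 4 dsInR2 libraries, against 31.9, 25.7, 37.4 and 28.0 CPM in the dsMock libraries. The groups overlapped throughout (log2 fold change 0.09, SE 0.20, edgeR adjusted p = 0.785). Psma5, subunit alpha type 5, missed the threshold narrowly, with 20 to 23.8 CPM in dsInR2 and 26.3 to 29.5 CPM in dsMock and no overlap between the groups (log2 fold change -0.34, SE 0.13, edgeR adjusted p = 0.0518). The other alpha genes were not called either. Their log2 fold changes were -0.28 for Psma1, -0.21 for PSMA2, -0.12 for Psma3 and 0.23 for Psma6. Psma6 overlaps Galt, a gene that was itself higher (log2 fold change 1.64, edgeR adjusted p = 1.9e-05).

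The beta ring likewise had 1 of 7 genes lower with dsInR2 (median log2 fold change -0.22). Prosbeta6 (C0J52_11378, contig PYGN01000445.1 from 19509 to 20213), subunit beta type 1, a structural member of the ring, had 42.1, 37.0, 35.2 and 32.7 CPM in the dsInR2 libraries, against 52.1, 45.3, 52.6 and 45.7 CPM in the dsMock libraries. The lowest dsMock library stood above the highest dsInR2 library (log2 fold change -0.41, SE 0.11, edgeR adjusted p = 0.00996). PSMB7 (C0J52_20056, contig PYGN01001174.1 from 158230 to 194922), which carries the trypsin-like site, had 105, 89.0, 89.9 and 103 CPM in dsInR2, against 123, 92.7, 121 and 106 CPM in dsMock. These ranges overlapped (log2 fold change -0.19, SE 0.16, edgeR adjusted p = 0.397).

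None of the subunits that hold a protease site was called. PSMB5, with the chymotrypsin-like site, had a log2 fold change of -0.16 (SE 0.13) and PSMB6, with the caspase-like site, -0.22 (SE 0.16). The structural subunits psmb3, PSMB2 and PSMB4 had -0.49 (SE 0.20), -0.24 (SE 0.17) and 0.48 (SE 0.25), also without a call, and PSMB4 overlaps the gene Non1. The 4 dsInR2 libraries of psmb3 all lay below the 4 dsMock libraries, but dsMock itself ranged from 29.1 to 47.8 CPM (edgeR adjusted p = 0.0784).

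The base of the regulatory particle had the largest share of lower genes among the classes of members. Of its 4 tested non-ATPase genes, 3 were lower with dsInR2 (median log2 fold change -0.53). Rpn10 (C0J52_08581, contig PYGN01000216.1 from 245455 to 280527), a receptor for ubiquitin chains, had 49.8, 62.9, 66.5 and 52.8 CPM in the dsInR2 libraries, against 92.1, 82.0, 99.1 and 103 CPM in the dsMock libraries. The 2 ranges were well apart, and Rpn10 had the smallest p of all members (log2 fold change -0.70, SE 0.13, edgeR adjusted p = 0.00108). Rpn10 overlaps a hypothetical gene whose own log2 fold change was -1.43 without a call.

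Rpn2_1 (C0J52_07570, contig PYGN01001493.1 from 295248 to 298172), a scaffold of the base, had 135, 130, 132 and 95.9 CPM in dsInR2, against 192, 177, 163 and 164 CPM in dsMock (log2 fold change -0.50, SE 0.12, edgeR adjusted p = 0.00621). The gene rpn-1 (C0J52_00891, contig PYGN01000418.1 from 987524 to 1009445), the other scaffold, had 105, 78.5, 92.2 and 70.4 CPM in dsInR2, against 120, 137, 115 and 135 CPM in dsMock (log2 fold change -0.55, SE 0.14, edgeR adjusted p = 0.00834). Neither scaffold gene had overlapping groups. Both have further annotated copies with few reads. Psmd2 (C0J52_10026, contig PYGN01000906.1 from 255752 to 293980), a second gene named for the rpn-1 subunit, had 0.76, 0.27, 0.84 and 0.71 CPM in dsInR2, against 1.1, 0.63, 0.56 and 0.95 CPM in dsMock, with overlapping groups (log2 fold change -0.33, SE 0.39, edgeR adjusted p = 0.557). Of the copies of Rpn2 that did not pass the filter, Rpn2_0 had 0 reads in every library and Rpn2_2 had 0 to 11 reads per library. How reads shared by such copies were divided between them is not stated in the labels used here.

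The ATPase ring, named 26S protease in the annotation, moved with the non-ATPase base, with 4 of 6 genes lower with dsInR2 (median log2 fold change -0.42). PRS6B (C0J52_16984), the Rpt3 ATPase, had 45.3, 39.4, 36.3 and 29.7 CPM in the dsInR2 libraries, against 66.7, 63.2, 68.3 and 60.8 CPM in the dsMock libraries. No dsInR2 library reached the dsMock range (log2 fold change -0.78, SE 0.15, edgeR adjusted p = 8.5e-04). PSMC2 fell by 0.52, PRS8 by 0.42 and Rpt2 by 0.43 on the log2 scale (edgeR adjusted p = 0.00407, 0.0177 and 0.0341). Psmc3 (-0.32) and Psmc6 (-0.11) were not called. The Rpt2 call was lost without dsInR2 library 1, 7 or 8 or dsMock library 1 or 4, and the PRS8 call without dsInR2 library 8 (highest edgeR adjusted p = 0.0961 and 0.0538). Both calls were also lost in a fit of dsInR2 and dsMock alone, and the Rpt2 call without the filter on low counts.

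In the lid, 3 of 7 genes were lower with dsInR2 (median log2 fold change -0.41). Rpn6 (C0J52_24436, contig PYGN01002118.1 from 65433 to 66758), which clamps the lid onto the core, had 67.0, 45.3, 56.9 and 54.8 CPM in the dsInR2 libraries, against 83.6, 74.5, 90.9 and 73.9 CPM in the dsMock libraries. All dsInR2 libraries were below all dsMock libraries (log2 fold change -0.53, SE 0.13, edgeR adjusted p = 0.00507). Rpn7 (C0J52_12657), a subunit of the lid's horseshoe that was chosen after its values were seen because it differed most from the other treatments, had 8.11, 6.87, 7.61 and 5.14 CPM in dsInR2, against 11.5, 11.6, 9.56 and 9.67 CPM in dsMock. It too had no overlap between the groups (log2 fold change -0.61, SE 0.17, edgeR adjusted p = 0.0103). Rpn8, the inactive partner of the deubiquitinating subunit, had 31.6 to 39.0 CPM in dsInR2 and 41.8 to 53.4 CPM in dsMock (log2 fold change -0.41, SE 0.13, edgeR adjusted p = 0.0244). Its call was lost without dsInR2 library 7 or 8 (highest edgeR adjusted p 0.0678), and also without the filter on low counts.

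PSMD13 (C0J52_16516, contig PYGN01001429.1 from 377534 to 380531), the Rpn9 subunit, marked the other end of the lid. It had 85.6, 64.5, 56.5 and 59.8 CPM in dsInR2, against 65.0, 62.9, 65.4 and 65.0 CPM in dsMock. The dsMock libraries were nearly equal and the dsInR2 libraries fell on both sides of them, library 1 above (log2 fold change 0.04, SE 0.14, edgeR adjusted p = 0.841). PSMD8, Psmd12 and Dox-A2 were not called, with log2 fold changes of -0.41, -0.22 and -0.15. Psmd12 overlaps STUB1, a ubiquitin ligase gene that was itself lower.

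**Figure D2:**
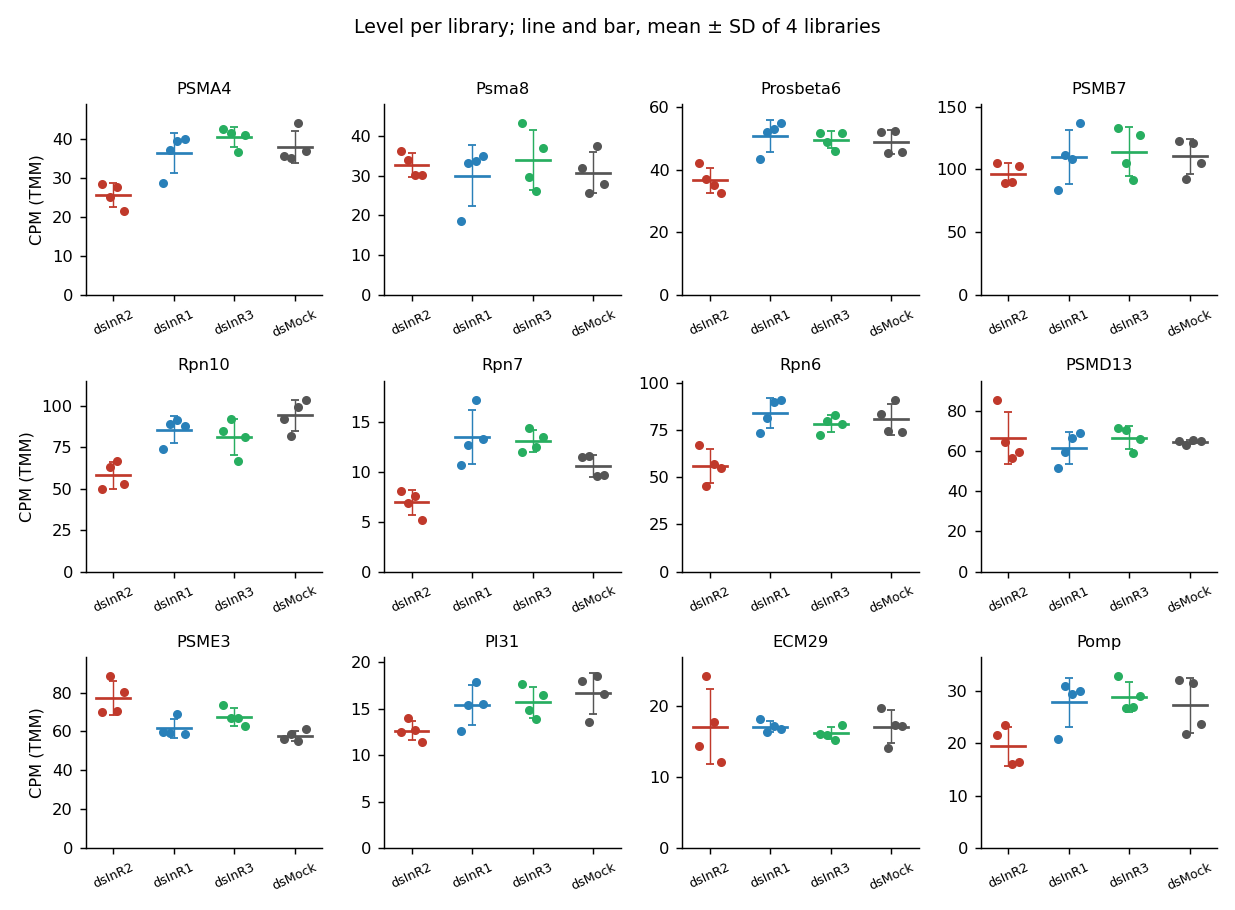
Level (CPM after TMM scaling) of 12 proteasome genes in each library of dsInR2, dsInR1, dsInR3 and dsMock, with a line for the mean and a bar for the SD of 4 libraries. For PSMA4, Prosbeta6, Rpn10, Rpn7 and Rpn6 the dsInR2 points lie below the dsMock points, for PSME3 above them (a difference whose sign turned with library totals less the most abundant gene), and for Psma8, PSMB7, PSMD13, PI31, ECM29 and Pomp they overlap.

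The activator PSME3 (C0J52_12074, contig PYGN01000451.1 from 1026030 to 1046424), known as PA28 gamma or REG gamma and, in mammals, as a nuclear activator of the core that works without ubiquitin or ATP, was the 1 member called higher. It had 70.2, 88.4, 70.8 and 80.1 CPM in the dsInR2 libraries, against 56.2, 58.5, 55.0 and 61.2 CPM in the dsMock libraries. Every dsInR2 library was above every dsMock library. The log2 fold change was 0.42 (SE 0.11, edgeR adjusted p = 0.0062), or 0.38 above the median of all genes, but the sign turned to -0.10 with library totals less the most abundant gene, where PSME3 lay 0.40 above that median. In a fit of dsInR2 and dsMock alone the call was lost.

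Among the 7 assembly factors and regulators, 2 were lower with dsInR2 (median log2 fold change -0.26). Pomp (C0J52_11048), which guides the beta rings during core assembly and was chosen after its values were seen, had 21.7, 23.6, 16.1 and 16.5 CPM in dsInR2, against 32.1, 21.8, 31.4 and 23.7 CPM in dsMock. PI31 (C0J52_15341, contig PYGN01000589.1 from 267189 to 275372), an inhibitor of the core in vitro and an adaptor for proteasome transport in fly neurons, had 12.5, 14, 12.7 and 11.5 CPM in dsInR2, against 18.0, 13.6, 18.5 and 16.6 CPM in dsMock. Both genes had overlapping groups. Their log2 fold changes were -0.49 (SE 0.17, edgeR adjusted p = 0.0426) and -0.40 (SE 0.14, edgeR adjusted p = 0.0344). These were the least stable calls among the members. Pomp lost its call without dsInR2 library 7 or 8 or dsMock library 1 or 4, and PI31 without dsInR2 library 1, 7 or 8 or dsMock library 4 or 5 (highest adjusted p 0.119 and 0.0971). Both also lost it without the filter on low counts and in a fit of dsInR2 and dsMock alone.

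ECM29 (C0J52_16836, contig PYGN01001591.1 from 38290 to 124961), which tethers core and regulatory particle, had 14.4, 24.2, 17.8 and 12.1 CPM in dsInR2, against 19.8, 14.1, 17.4 and 17.2 CPM in dsMock. The dsInR2 libraries spread wider than the dsMock libraries and lay around them (log2 fold change 0.001, SE 0.17, edgeR adjusted p = 0.997). The chaperone psmg1, which pairs alpha subunits, had 5.85 to 12.0 CPM in dsInR2 and 4.33 to 5.45 CPM in dsMock. Its groups did not overlap, yet it was not called (log2 fold change 0.72, SE 0.29, edgeR adjusted p = 0.0717). Its partner psmg2 had a log2 fold change of -0.26, and the base chaperones PSMD9 and Psmd10 had -0.28 and -0.12, all without a call.

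Set side by side in dsInR2, 2 of 14 core subunits (14.3%) and 6 of 11 tested regulatory particle subunits (54.5%) were lower than in dsMock, with medians of -0.22 and -0.41. With the 6 ATPases added, an alternative chosen after seeing the data, 10 of 17 regulatory genes (58.8%) were lower, with a median of -0.42. The ubiquitin receptor Rpn13, also outside the members by its product name, was not added here or in the comparisons by library below. It was not called (log2 fold change -0.02, edgeR adjusted p = 0.937). Under TMM scaling the share of core genes lay near the 14.7% of all genes. Relative to the median of all genes, the core median was -0.26 and the regulatory median -0.45. The difference between the particles has no test of its own here. Among members that overlap no other annotated gene, 1 of 9 core and 5 of 8 regulatory genes were lower. With library totals less the most abundant gene, 11 of 14 core and 10 of 11 regulatory genes were lower. Of all 10536 genes, 3917 were lower under that scaling. The place of the core share beside that of all genes thus rests on the scaling.

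Library by library, the median log2 level of the regulatory particle against its dsMock mean was -0.28, -0.42, -0.46 and -0.55 in dsInR2 libraries 1, 4, 7 and 8, against 0.12, -0.12, -0.06 and -0.003 in dsMock libraries 1, 3, 4 and 5. For the core the same quantity was -0.07, -0.14, -0.30 and -0.47 in dsInR2, against 0.03, -0.13, 0.18 and -0.09 in dsMock. The regulatory particle was thus below the dsMock range in every dsInR2 library, whereas the core medians overlapped. In library 8 both particles were low, and in library 1 the core lay within the dsMock range.

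**Figure D3:**
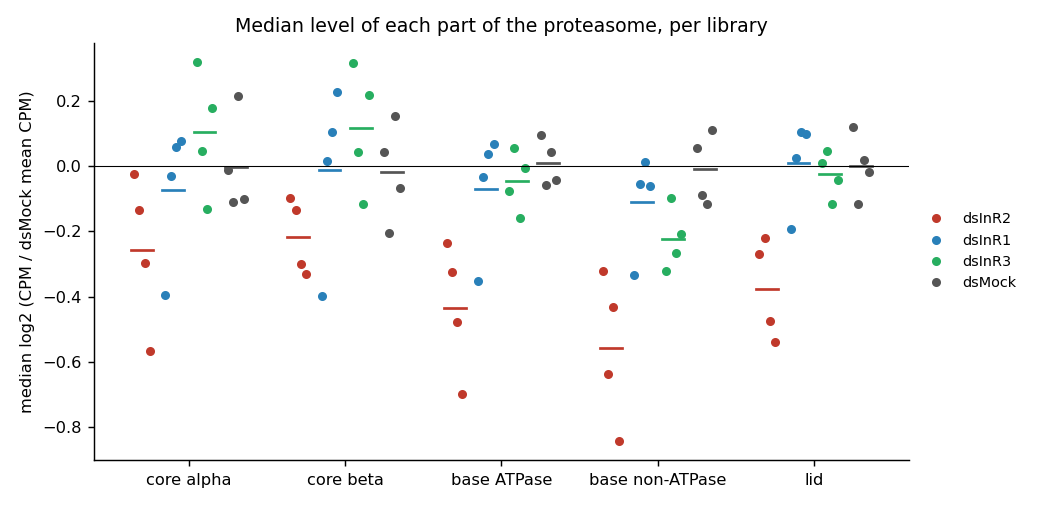
Median over the genes of each part of the proteasome of the log2 ratio of CPM to the dsMock mean, 1 point per library and a line for the mean of 4 libraries, for dsInR2, dsInR1, dsInR3 and dsMock. The dsInR2 points of the base ATPases, other base genes and lid lie below all dsMock points, those of the core alpha and beta genes overlap them, and 1 dsInR1 library lies low in every part.

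A difference between the particles within a library does not depend on its scaling. The core median minus the regulatory median, ATPases included, was 0.21, 0.20, 0.16 and 0.09 on the log2 scale in dsInR2 libraries 1, 4, 7 and 8, against -0.06, -0.07, 0.16 and -0.07 in dsMock libraries 1, 3, 4 and 5. The dsInR2 libraries were all positive, and 3 of the dsMock libraries lay below 0, but dsMock library 4 fell inside the dsInR2 range. The same difference was -0.07 to 0.11 in dsInR1 and 0.003 to 0.42 in dsInR3, so the dsInR3 libraries spread over both other ranges. Without dsInR1 library 2, at -0.07, the dsInR1 range was 0.003 to 0.11, all positive as in dsInR2. With the ATPases left out, the difference was 0.08 to 0.28 in dsInR2 and -0.09 to 0.24 in dsMock.

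The summed reads of the core subunits, divided by those of the regulatory particle with its ATPases, gave a ratio of 0.554 to 0.611 in dsInR2, 0.458 to 0.535 in dsInR1, 0.493 to 0.649 in dsInR3 and 0.455 to 0.553 in dsMock. Without dsInR1 library 2 the dsInR1 range was 0.488 to 0.535. For this ratio the dsInR2 and dsMock ranges touched without overlapping, with dsMock library 4 again the highest of its group. Sums are led by the genes with the most reads, and they are not levels per length, so the ratio compares libraries and not particles. Neither measure has a p, because the members were chosen with results known.

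**Figure D4:**
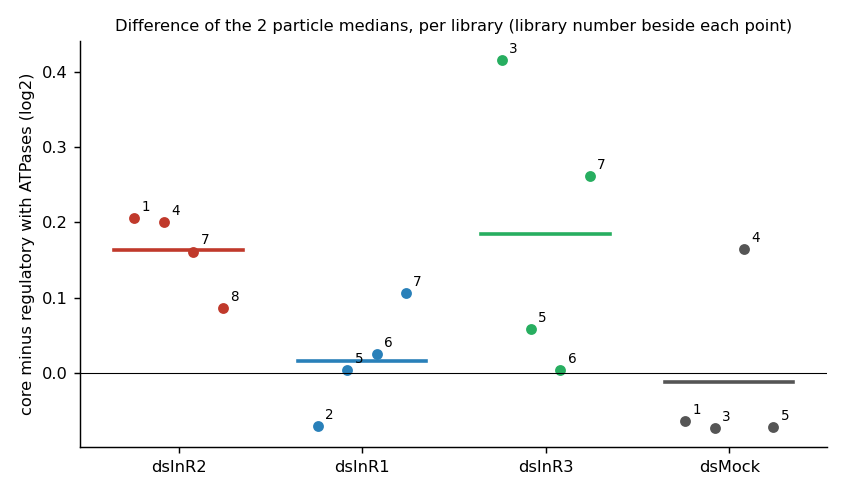
Core median minus regulatory median (ATPases included) of the log2 ratio of CPM to the dsMock mean, 1 numbered point per library and a line for the mean of 4 libraries, for dsInR2, dsInR1, dsInR3 and dsMock. The dsInR2 points lie at 0.09 to 0.21, 3 dsMock points lie below 0, and dsMock library 4 at 0.16 lies among the dsInR2 points.

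With dsInR1, no proteasome gene was called against dsMock, and 0 of 10536 genes were called (0% of all genes; 347 at an unadjusted p under 0.05). No member had an unadjusted p under 0.05, and DESeq2 and limma-voom also called none. The members' log2 fold changes ran from -0.44 (Psmd2) to 0.35 (Rpn7), with a median of 0.01. Every member overlapped dsMock, where of all genes tested 1.28% lay below it and 0.968% above it without overlap. Rpn7 had 10.7, 12.8, 17.2 and 13.3 CPM in dsInR1 libraries 2, 5, 6 and 7. Without dsInR1 library 2 the count stayed at 0 in both directions.

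With dsInR3, no member was called against dsMock either, where 0.304% of all genes were called, 0.199% higher and 0.104% lower. Of the members, 2 had an unadjusted p under 0.05, and DESeq2 and limma-voom called none. The smallest adjusted p was that of PSMB4, with 46.3, 38.9, 25.4 and 44.8 CPM in dsInR3 libraries 3, 5, 6 and 7, against 23.4, 23.3, 29.7 and 21.5 CPM in dsMock (log2 fold change 0.67, SE 0.25, edgeR adjusted p = 0.218). Library 6 fell within the dsMock range and the other 3 above it. Of the core genes 13 of 14 had a positive log2 fold change (median 0.13), while the regulatory median was -0.04 and all 4 tested non-ATPase base genes were negative (median -0.23). Rpn2_1 lay below dsMock without overlap, at 136 to 156 CPM in dsInR3 and 163 to 192 CPM in dsMock, and Rpn7 and PSME3 lay above it without overlap. None of these passed the test, and 4.59% of all genes tested lay below dsMock without overlap and 5.62% above it, so 1 and 2 of 33 members are near those shares.

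Direct tests set dsInR2 against the other receptor treatments. Against dsInR1, 9 members were lower and 1, PSME3, was higher in dsInR2, where 31.1% of all genes were called, 14.3% lower and 16.8% higher. The lower ones were 2 of 14 core and 6 of 11 regulatory genes, and Pomp. Without dsInR1 library 2, 10 were lower and 0 higher. Rpn7 had the largest difference, with 5.14 to 8.11 CPM in dsInR2 and 10.7 to 17.2 CPM in dsInR1 (log2 fold change -0.96, SE 0.17, edgeR adjusted p = 5.6e-04). The PSME3 call (0.33, edgeR adjusted p = 0.0268) was lost without dsInR1 library 2 or 5 or dsInR2 library 4 or 8.

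Against dsInR3, 9 members were lower and 0 higher in dsInR2, where 22.9% of all genes were called, 11.3% lower and 11.6% higher. They were 3 of 14 core genes, 4 of 11 regulatory genes, Pomp and the chaperone psmg2. Rpn7 again led, at 12.0 to 14.4 CPM in dsInR3 (log2 fold change -0.92, SE 0.17, edgeR adjusted p = 0.00117). The core gene psmb3 was called here, with 21.8 to 28.1 CPM in dsInR2 and 33.8 to 46.6 CPM in dsInR3 (log2 fold change -0.76, SE 0.20, edgeR adjusted p = 0.0145). Rpn2_1 and Rpn8 were not called in this comparison (-0.26 and -0.36). The median was -0.34 for the core and -0.36 for the regulatory particle. With the ATPases added, 8 of 17 regulatory genes (47.1%) were lower, with a median of -0.41, beside 3 of 14 core genes (21.4%). The difference between the particles was not tested in this comparison either. Between dsInR3 and dsInR1, no member was called and 0% of all genes were (970 at an unadjusted p under 0.05). The members' count stayed at 0 without dsInR1 library 2. The comparisons share the dsInR2 libraries and are not independent of each other.

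Genes that bind to the proteasome under another name followed no single pattern with dsInR2. PAAF1, which in mammals binds the base ATPases, fell by 0.72 and USP14, a deubiquitinase bound to the base, by 0.39 on the log2 scale (edgeR adjusted p = 0.0104 and 0.034). USP14 lost its call without dsInR2 library 7 or 8 or dsMock library 3 or 4 (highest adjusted p 0.104). It also lost it without the filter on low counts and in a fit of dsInR2 and dsMock alone. The ubiquitin receptor Rpn13 (-0.02) and the deubiquitinase Uchl5 (0.25) were not called.

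Upstream of the proteasome, ubiquitin is activated and conjugated by E1 and E2 enzymes, and 7 of 22 tested genes of this list were lower and 3 higher with dsInR2, against 14.7% and 17.6% of all genes. The E2 S enzyme C0J52_01812, which in mammals extends chains for the anaphase-promoting complex, had 4.15 ± 0.26 CPM in dsInR2 and 10.7 ± 0.58 in dsMock (SD, n = 4; log2 fold change -1.37, SE 0.14, edgeR adjusted p = 9.7e-06). Ube2h_1 fell by 1.51 and CDC34 by 0.49. UBE2V2_1, Ube2v2_0 and Ubc2 rose, with log2 fold changes of 1.29, 1.13 and 0.86. Ubc2 lost its call with library totals less the most abundant gene. UBE2V2_1 and Ube2v2_0 share a product name, and how reads common to such copies were divided is not given.

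Ubiquitin ligases, which choose the substrates, went both ways, with 18 lower and 11 higher of 81 tested. That is 22.2% lower and 13.6% higher, against 14.7% and 17.6% of all genes. The higher genes include Mycbp2, MYCBP2_0, MYCBP2_1 and MYCBP2_2, which share a product name, and CAND1, which is no ligase itself. UBR2, a ligase of the N-degron pathway, fell to 47.8 ± 5.51 CPM in dsInR2, against 91.7 ± 12.4 in dsMock (log2 fold change -0.94, edgeR adjusted p = 2.5e-04). Huwe1_1 and STUB1 fell by 0.85 and 0.79 on the log2 scale. HUWE1_0, which shares a product name with Huwe1_1, was not called (log2 fold change -0.37, edgeR adjusted p = 0.237). The scaffold CUL5, the cullin exchange factor CAND1 and Mycbp2 (log2 fold change 0.78) rose. CAND1 had 60.9 ± 2.10 CPM in dsInR2, against 29.4 ± 2.09 in dsMock (log2 fold change 1.05, edgeR adjusted p = 3.8e-05). Mycbp2 lost its call with library totals less the most abundant gene. Deubiquitinases, USP14 and Uchl5 included, had 8 higher and 5 lower of 24 tested (33.3% and 20.8%, against 17.6% and 14.7% of all genes). USP5, which disassembles free chains, rose to 44.7 ± 5.10 CPM in dsInR2, against 22.3 ± 2.56 in dsMock (log2 fold change 1.001, edgeR adjusted p = 1.8e-04), as did USP34_1 and USP34_0 (1.07 and 0.85). USP34_1 and USP34_0 share a product name, and USP34_0 lost its call with library totals less the most abundant gene. The otubain-like gene C0J52_03434, OTU1 (C0J52_14025) and mindy3 fell by 0.88, 0.64 and 0.45. The mindy3 call was lost without dsInR2 library 1 or 7 or dsMock library 1 or 4 (highest edgeR adjusted p 0.0595). It was also lost in a fit of dsInR2 and dsMock alone.

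Shuttles, ubiquitin and the segregase p97, which bring substrates to the proteasome, had 5 of 9 genes lower and 0 higher with dsInR2 (median log2 fold change -0.58). That is 55.6% lower, where 14.7% of all genes were lower and 17.6% higher. DDI2, a shuttle with an aspartic protease domain, had 6.82 ± 0.76 CPM in dsInR2 and 20.4 ± 2.04 in dsMock (SD, n = 4; log2 fold change -1.58, SE 0.18, edgeR adjusted p = 2.0e-05). The 2 annotated genes for the p97 cofactor Npl4 were both lower, Npl4_0 with 49.8 ± 5.00 CPM in dsInR2 and 96.2 ± 4.47 in dsMock (log2 fold change -0.95, edgeR adjusted p = 7.3e-05) and Npl4_1 with a log2 fold change of -0.78. The other 2 of the 5, chosen after their values were seen, were the p97 ATPase TER94, with 352 ± 80.7 CPM in dsInR2 and 616 ± 70.3 in dsMock (-0.81, edgeR adjusted p = 0.00238), and RAD23B (C0J52_02744) with -0.58.

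Of the N-glycanase and proteases near the pathway, ngly1, which in mammals acts with DDI2 in maturation of the transcription factor NFE2L1, had 4.14 ± 1.21 CPM in dsInR2 and 14.9 ± 2.07 in dsMock (log2 fold change -1.85, SE 0.26, edgeR adjusted p = 1.1e-04). Bleomycin hydrolase (Blmh) fell by 0.60 and LTA4H rose by 1.18, a call that was lost with library totals less the most abundant gene. The cap'n'collar gene cnc, the insect relative of NFE2L1, was not called (log2 fold change 0.17, edgeR adjusted p = 0.467), and of the 4 transcription factor candidates foxo_1 alone was, with 73.4 ± 12.5 CPM in dsInR2 and 110 ± 13.9 in dsMock (-0.59, edgeR adjusted p = 0.00617). Translation factor eIF3 and the COP9 signalosome, whose subunits are related to the lid, had 0 of 23 genes lower and 4 higher (median log2 fold change 0.06). The higher genes are 17.4% of the list, near the 17.6% of all genes. Those with the smallest p were the eIF3 subunits C0J52_17265 (0.49), eIF3-S4 (0.96) and EIF3K (0.70). With library totals less the most abundant gene, the sign of C0J52_17265 turned to -0.04, and eIF3-S4 and EIF3K lost their calls. With dsInR1 no gene of these lists was called against dsMock, and with dsInR3 only 1 E1 or E2 gene and 1 ligase, both higher.

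**Figure D5:**
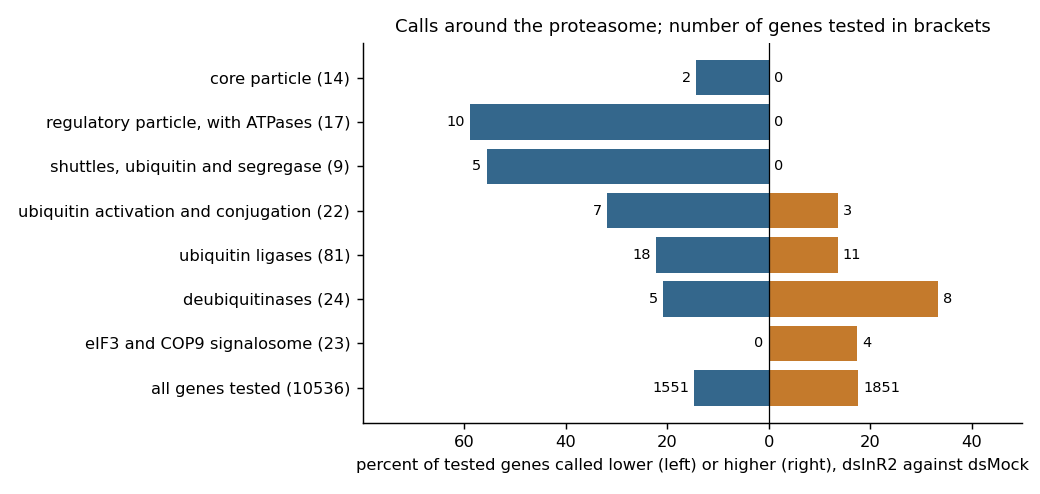
Percent of tested genes called lower (left) or higher (right) in dsInR2 against dsMock, with the number called beside each bar and the number tested in brackets, for the 2 particles, the ubiquitin lists and all genes. The bars use TMM scaling. The regulatory particle with 10 of 17 and the shuttle list with 5 of 9 lower stand to the left. The core with 2 of 14 lies near the 14.7% of all genes. With library totals less the most abundant gene, 11 of 14 core genes and 3917 of all 10536 genes were lower. The list of eIF3 with the COP9 signalosome has calls to the right alone, at a share near that of all genes. Of its named genes, C0J52_17265 changed sign and eIF3-S4 and EIF3K lost their calls with library totals less the most abundant gene.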

How the data were processed

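RNA sequencing measured polyA RNA of fat body in 16 libraries, 4 per group. The deposited values are read counts of each gene, raw and without normalization, in a single table of genome build Bger_1.1 that the authors made. The submitters' processing notes name FastQC, Trimmomatic, HISAT2 and StringTie, and give no version. Strand use, treatment of multi-mapping reads and animals per library are not stated there, and p-values therefore measure the spread between these samples, which may be technical. The table holds 32 further columns of values (FPKM and TPM) that were not used, because each library was kept in 1 measure. Levels per length were therefore not compared between genes. Columns were assigned to groups by name. The control columns name a polyhedrin dsRNA, and dsMock was the group left for them. Libraries are called by the number in the column name, which is no replicate number of a title.

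Counts were tested with edgeR 4.0.16 (quasi-likelihood, two-sided; R 4.3.3), using TMM scaling, filterByExpr (10536 genes kept), 1 coefficient per group over all 16 libraries and Benjamini-Hochberg adjustment over all tested genes at 0.05. The fit was also run on simulated counts. A small part of the genes changed there, equally often up and down, by more than the members did. The simulation held no fall of the most abundant gene. It therefore cannot test the scaling or changes as small as those of the members. CPM are TMM-scaled counts, and marker sums are sums of CPM. Other normalizations, filters, samples in the fit, DESeq2 1.42.0, limma-voom (limma 3.58.1) and leaving out each library were tried. All 28676 locus tags matched the annotation, which gave coordinates and overlaps. Of the tested members, 10 overlap another gene: PSMA4, Psma6, PSMB4, PSMB7, psmb3, Psmd2, Rpn10, Psmd12, PSMD9 and Psmd10. The ATPases PSMC2, Psmc3 and Rpt2 and the deubiquitinase Uchl5 do so too. Psmd10 overlaps ECSIT, which was higher with dsInR2 (log2 fold change 1.08, edgeR adjusted p = 0.0276). Depth limits precision for genes with few reads, such as Psmd2 with 7 to 23 reads per library, and PCR duplicates could not be told from separate molecules.

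The members, gene lists and tests were chosen with earlier results of these data known. Lists are patterns of product names and are described by counts and medians without a test. Named in full were the genes with the smallest and largest p of each class in dsInR2 against dsMock, members called against the majority and members that failed the filter, and of each related list the 3 with the smallest p in each direction. Rpn2_1, rpn-1, Rpn7 and Pomp were given in full outside this rule, with their values already seen.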

Additional observations from a re-analysis of the deposited data

Results flagged for a closer look

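Of 60 groups of 4 libraries examined, 4 had a library far from the others, and chance flags about 1 in 20. In dsInR1, library 2 had 18.5 CPM of the alpha type 7-like subunit Psma8, below the 33.1 to 35.0 CPM of the other 3 libraries. The same library had the lowest regulatory particle median, -0.31 on the log2 scale against the dsMock mean, with 0.004 to 0.07 in the others. PSME3 stood out upward in dsInR1 library 6, with 68.9 CPM against 58.5 to 59.8 CPM. In dsMock, library 4 had a core median minus regulatory median (ATPases included) of 0.16 on the log2 scale, above the -0.07 to -0.06 of the other 3 libraries. The cause was not tested.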

How the results depend on the processing

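No paired analysis was possible because the numbers in the column names do not match those in the titles. Library totals less the most abundant gene changed the counts most: against dsMock, 0 members were higher and 27 lower with dsInR2, with 11 core genes lower (median -0.76) and 10 regulatory genes lower (median -0.94). Under that scaling dsInR2 had 0 members higher and 27 lower against dsInR1 and 28 lower against dsInR3. Of all 10536 genes, that scaling called 3917 lower and 692 higher against dsMock, 3827 and 587 against dsInR1, and 3643 and 324 against dsInR3. It also turned the signs of Psma6 (-0.31), Psma8 (-0.45), PSMB4 (-0.047), PSMD13 (-0.51), PSME3 (-0.10), ECM29 (-0.52), Uchl5 (-0.30) and C0J52_17265 (-0.037), by a shift of the whole scale, since the median of all genes moved to -0.50. With only the groups compared in the fit, 0 members were higher against dsMock and 0 against dsInR1. Of the 11 members called in dsInR2 against dsMock, 8 kept the call in that fit and 8 without the filter on low counts. With the 6 ATPases added, 10 regulatory genes were lower.

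Leaving out each library in turn gave 7 to 11 members lower and 1 higher for dsInR2 against dsMock, 2 to 3 core genes lower (median -0.28 to -0.16) and 5 to 7 regulatory genes lower (median -0.49 to -0.39). It gave 7 to 10 lower and 0 to 1 higher against dsInR1, and 6 to 9 lower against dsInR3. Of the 11 called members, 7 kept the call in all 14 settings: PSMA4, Prosbeta6, Rpn10, Rpn2_1, rpn-1, Rpn6 and Rpn7. Among uncalled genes with values near 0, the log2 fold change over the left-out libraries ran from -0.21 to 0.0076 for Psma3, -0.097 to 0.12 for PSMD13, -0.21 to 0.14 for ECM29 and -0.17 to 0.089 for Rpn13. ECM29 also turned to -0.023 with RLE size factors, -0.0233 in the fit of 2 groups, -0.0168 with DESeq2 and -0.0422 with limma-voom. For other changes the cause was not tested. Depth limits Psmd2 and the copies of Rpn2 with few reads.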
